A study of Caenorhabditis elegans with 33 samples.

Results

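The histone genes of *Caenorhabditis elegans* were taken as every gene whose symbol is his- followed by a number. The rule found 72 genes among the 46778 gene IDs in the count files. By class they were 17 H2A, 17 H2B, 14 H3, 16 H4, 7 H3.3-type or other H3 variant genes (his-40 and his-69 to his-74) and 1 linker histone H1 gene, his-24. Members closer than 20 kb to each other were joined into 18 loci, spread over chromosomes I, II, III, IV, V and X of the WBcel235 annotation. Of the 72 genes, 42 had enough counts to be tested and 30 did not.

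Histones are the proteins around which DNA is wound: H2A, H2B, H3 and H4 form the core of the nucleosome, and H1 binds the DNA between nucleosomes. Most core histone genes of the worm lie in clusters with several copies of each class. They are read mainly during DNA replication, and their mRNAs end in a stem-loop without a poly(A) tail. Variants such as H3.3 are placed in chromatin outside replication and are typically made from ordinary genes with introns and polyadenylated mRNAs. In L4 larvae and young adults, the germ line is the main tissue in which cells still replicate their DNA.

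The animals were of the wild-type strain N2, and RNA came from whole animals, which the labels describe both as L4 and as young adults. Exposed animals of generations F0, F1, F2 and F3 grew under gamma radiation at 50 mGy per h for 65 h at 19 °C. Recovery animals of F1, F2 and F3 descended from irradiated F0 animals and grew without irradiation. Control animals of F0 to F3 were never irradiated. Each of the 11 groups had 3 libraries, 33 in all. The comparisons addressed what chronic radiation does to transcripts within a generation, over generations, and in unirradiated descendants.

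The libraries held between 27698760 and 60808541 counts, and histone genes took between 0.0504% and 0.0916% of them. The share of ribosomal RNA genes ran from 3.19% in F0 control 2 to 24.3% in F2 control 1, with a median of 6.86%. F3 recovery 3 had a count for 18240 genes and F3 control 3 for 19610, against at least 20503 in each of the other 31 libraries. Markers of both sperm and adult intestine were present in every library: major sperm protein genes summed to between 2318 and 4454 CPM (counts scaled to a common library size), and the vitellogenin yolk genes to between 16960 and 35550 CPM. Zygotic embryo markers summed to between 33.6 and 45.8 CPM. In whole animals, fewer cells of a type and less RNA per cell cannot be told apart.

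The 72 genes fell into 2 kinds by their annotation, a grouping made with the data known. In 64 of them the gene model was a single coding exon with no untranslated region (UTR), as is usual for replication-type copies. The other 8 had an intron and UTRs: the H2A genes his-35 and his-57, the H2B gene his-41, the H4 gene his-37, the H3.3 genes his-71 and his-72, the H3.3-type gene his-74 and the H1 gene his-24. These 8 genes held 72.2% of all counts in histone genes, and the 64 single-exon genes held 27.8%. How RNA was selected before library making is not given in the sources used here, so the low share of the single-exon genes cannot be read as a low amount of their mRNA.

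**Figure D1:**
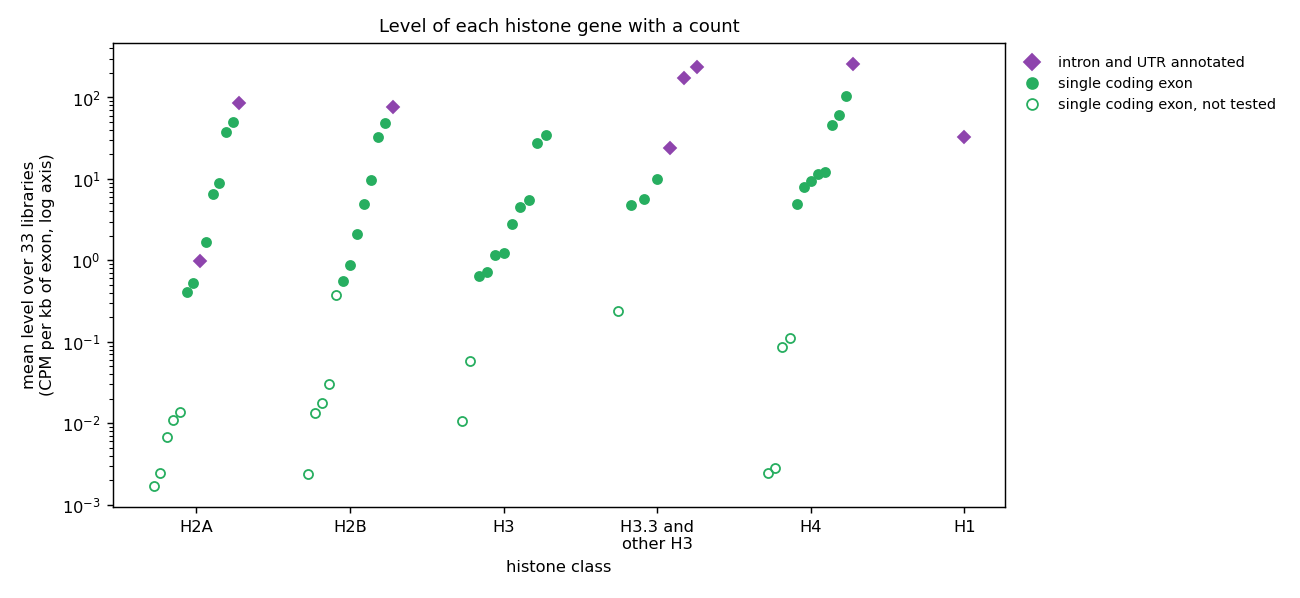
Mean level of each histone gene with any count, over 33 libraries, in CPM per kb of exon on a log axis, by histone class. Purple diamonds are genes annotated with an intron and UTRs, filled green circles are tested single-exon genes and open circles are genes with too few counts to test. In H2A, H2B, H3.3-type and H4, the gene of highest level is one with an intron and UTRs.

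Levels between genes are compared here per kb of exon. The highest mean level was 259 CPM per kb for his-37, an H4 gene (WBGene00001911, V:9547105-9547607), followed by 234 for his-74 (WBGene00012276, V:12659704-12660330) and 174 for his-72 (WBGene00001946, III:12367475-12369050). The H2A gene his-35 (WBGene00001909, V:9544659-9545288) averaged 86.0 CPM per kb and the H2B gene his-41 (WBGene00001915, V:9545536-9546264) 76.6 CPM per kb. These are close neighbours of his-37, and the 3 genes share 1 locus on chromosome V. The H1 gene his-24 (WBGene00001898, X:14490094-14491119) averaged 32.6 CPM per kb, and his-71 (WBGene00001945, X:7981382-7982070), the other H3.3 gene, 23.9 CPM per kb. Among single-exon genes the H4 gene his-60 was highest at 103 CPM per kb. It lies with the H3 gene his-59, the H2A gene his-61 and the H2B gene his-62 at IV:7485834-7488659, a locus that drew 93877 counts over all libraries.

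Clusters of the same classes differed widely. The 13 members at II:13817760-13828697 drew 1635 counts together over 33 libraries. The 6 members at V:8847393-8854053 drew 2 counts, and the 8 at V:8889488-8898539 drew 3442, all in the H4 gene his-18 (2874 counts) and the H3 gene his-17 (568 counts). The 30 genes that were not tested had 435 counts together, of which the H2B gene his-11 had 168. Of these 30, 24 had fewer than 10 counts in all and 13 had none, and 10 of the 13 lie in those 2 clusters of chromosome V. Core histone copies of a class are nearly identical in sequence, and how the counting treated reads that fit several genes is not given. A low count for one copy can therefore mean that its reads were dropped or given to another, and the level of single copies is uncertain. Reads that were dropped would be missing from a summed level per class as well.

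A few genes with an intron and UTRs also held a large part of the level of each core class. Per kb of exon, his-37 made up between 25.3% and 70% of the summed H4 level over the 33 libraries, with a median of 54.9%. The H2B gene his-41 made up a median of 47.9% of the H2B level, with a range from 17.6% to 70%. For H2A, his-35 and his-57 together made up a median of 46.5%, between 30.5% and 55.9%. Of the level of all 21 H3-type genes, his-71, his-72 and his-74 made up a median of 84.0%, between 60.7% and 88.1%. In each of these classes the lowest share was in F2 control 1, the library with the most ribosomal RNA.

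The 2 kinds varied differently between libraries. The level of his-41 in the highest library was 1.58 times that in the lowest, and that of his-37 was 1.71 times. The same ratio was 2.14 for his-74, 2.73 for his-35, 2.82 for his-72, 2.91 for his-71, 3.22 for his-24 and 4.74 for his-57. Among single-exon genes it was 11.1 for the H3 gene his-59, 12 for the H2B gene his-62, 10.4 for the H4 gene his-64 and 18.8 for his-18. The 2 kinds overlapped in this ratio. Other single-exon genes were as low as 2.78 for his-68, 2.81 for his-8, 2.89 for his-38 and 3.85 for his-60. On the log2 scale, the standard deviation within groups had a median of 0.586 over the 34 tested single-exon genes and 0.281 over the 8 genes with an intron and UTRs, against 0.197 over all 17627 genes tested. Most single-exon genes therefore varied more between libraries of 1 group than most genes did. The sets were not matched for level, and 11 of the 34 single-exon genes had a mean under 1 CPM, where counting noise adds to this spread.

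The summed level of the 64 single-exon genes is given here in CPM, library 1 to 3 of each group in order. In F0 it was 97.8, 139 and 148 in exposed animals and 160, 160 and 149 in controls. In F1 it was 148, 140 and 141 in exposed, 166, 135 and 169 in recovery and 177, 378 and 163 in control animals. All exposed libraries of F0 and F1 lay below all controls of their generation. In F2 it was 125, 205 and 162 in exposed, 175, 183 and 195 in recovery and 583, 197 and 163 in control animals. In F3 it was 411, 187 and 172 in exposed, 114, 196 and 127 in recovery and 340, 182 and 322 in control animals. Groups overlapped in F2 and F3, and 5 of the 33 libraries were above 300 CPM: F3 exposed 1, F1 control 2, F2 control 1, F3 control 1 and F3 control 3. The other 28 were at or below 205 CPM. Of the 34 tested single-exon genes, 21 reached their highest level in the same library, F2 control 1.

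**Figure D2:**
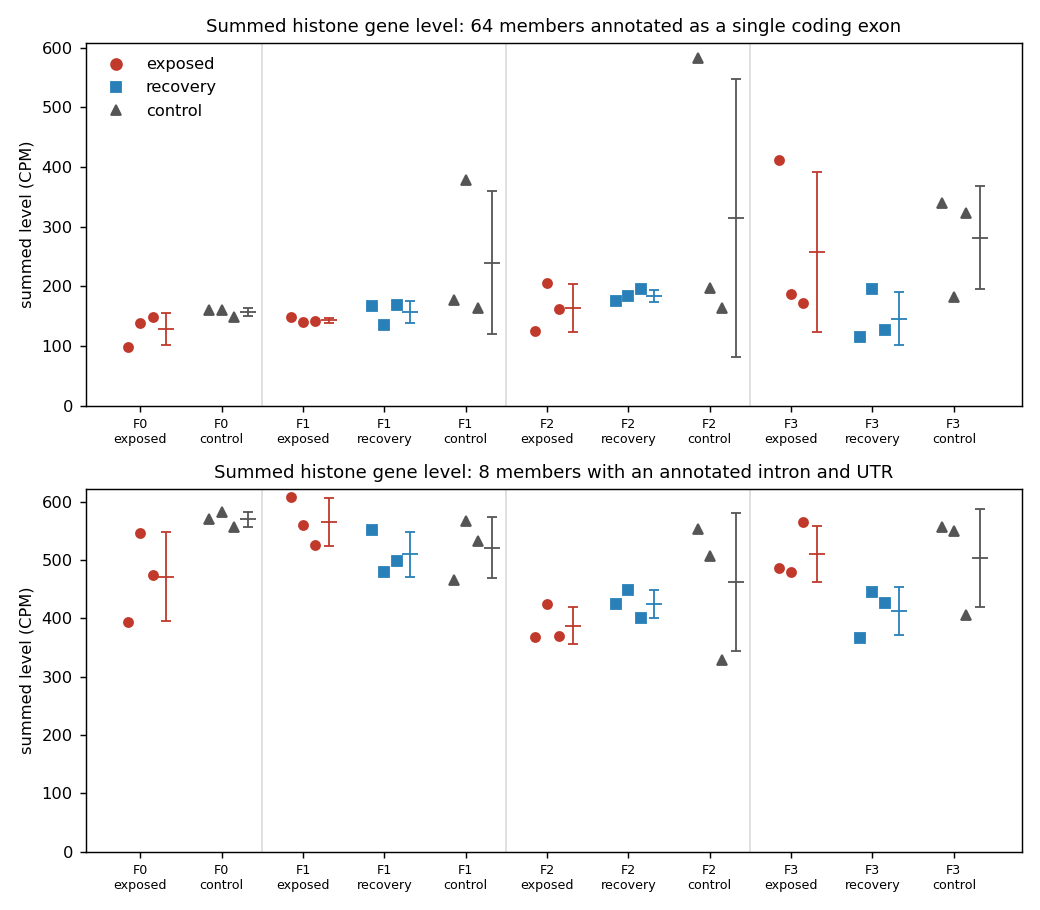
Summed level in CPM of the 64 single-exon histone genes (top) and of the 8 with an intron and UTRs (bottom) in each of the 33 libraries, by group, with the mean and SD of the 3 libraries. In the top panel 5 libraries stand above 300 CPM, 4 of them controls, while the bottom panel spans 328 to 608 CPM.

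The 8 genes with an intron and UTRs summed to between 328 CPM in F2 control 3 and 608 CPM in F1 exposed 1. In F0 the sum was 394, 546 and 474 CPM in exposed animals and 571, 582 and 557 CPM in controls, with no overlap. In F2 it was 368, 424 and 370 CPM in exposed, 424, 448 and 400 CPM in recovery animals and 553, 507 and 328 CPM in controls. F2 control 3 was thus the lowest of all libraries, while the other F2 controls lay above every exposed and recovery library of that generation. In F3 it was 486, 479 and 566 CPM in exposed, 366, 445 and 426 CPM in recovery animals and 556, 549 and 406 CPM in controls. There each exposed library was above each recovery library, and the controls overlapped both.

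The level of the single-exon genes moved with the share of ribosomal RNA in the library. Over 33 libraries the log2 summed level and the log2 ribosomal RNA share had a Pearson correlation of 0.806 and a Spearman correlation of 0.796, and a Pearson correlation of 0.709 without the 2 libraries farthest from the median share, F3 exposed 1 and F2 control 1. Within generations the Pearson correlation was -0.352 in F0 (6 libraries), 0.841 in F1, 0.863 in F2 and 0.949 in F3 (9 libraries each), and over deviations from the group means it was 0.813. The 5 libraries above 300 CPM had ribosomal RNA shares between 12.7% and 24.3%, and the other 28 between 3.19% and 14%. For the genes with an intron and UTRs the Pearson correlation was -0.29 and the Spearman correlation -0.35. By class, the single-exon H2B, H4 and H3 sums had Pearson correlations of 0.871, 0.859 and 0.807, and the H2A sum 0.494. Both measures come from the same libraries, so these are descriptions with no test.

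**Figure D3:**
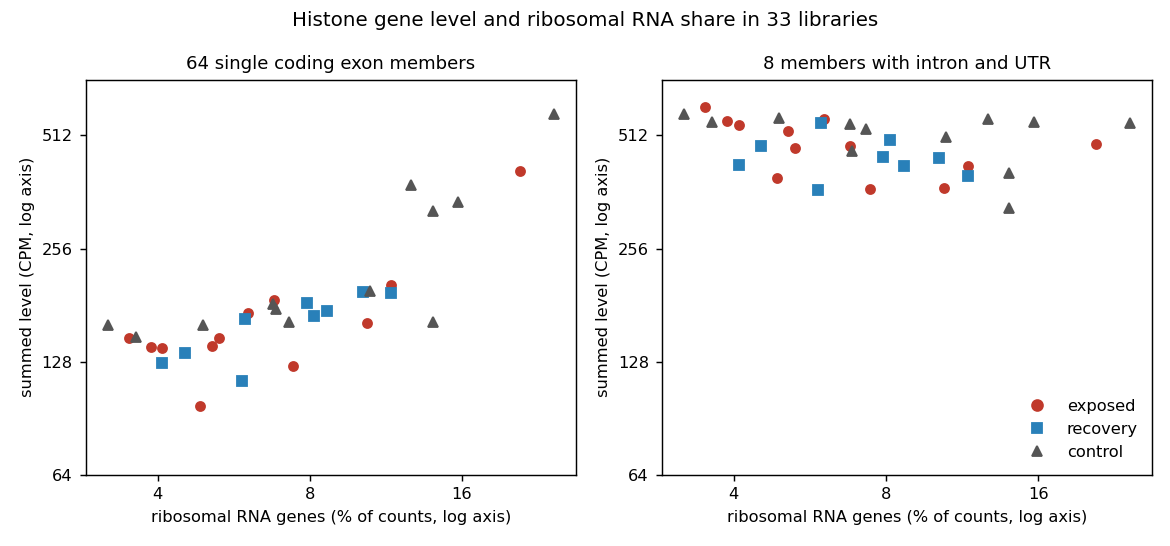
Summed level of the 64 single-exon histone genes (left) and of the 8 with an intron and UTRs (right) against the share of counts in ribosomal RNA genes, on log axes, 1 point per library and a symbol per treatment. The left points climb with the share (Pearson 0.806 on log2 values) and the right points do not (-0.29).

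Gene by gene, 17 of the 34 tested single-exon genes (50.0%) had a Pearson correlation above 0.6 with the ribosomal RNA share, against 0 of the 8 with an intron and UTRs and 1.63% of all genes tested. The highest was 0.927 for the H2B gene his-4. Some single-exon genes ran the other way: his-39 at -0.526, his-47 at -0.479 and his-68, an H2A gene, at -0.202. What the ribosomal RNA share of a library stands for here, such as the selection of RNA, is not given in the sources used here, and its part in the results below was not tested as a cause. The median of the single-exon genes in each comparison is therefore given also from a fit that holds the log2 share as a covariate, an alternative chosen after seeing the data. For each gene that fit uses 1 slope over all 33 libraries. Within F0 the correlation of the single-exon sum with the share was -0.352, so covariate values that involve F0 are uncertain.

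Single-exon genes from different clusters and chromosomes varied together. Over deviations from group means in 33 libraries, the 23 tested single-exon genes with a mean of at least 1 CPM made 253 pairs, whose Pearson correlation ran from 0.3 to 0.985 with a median of 0.813. Of the 23, 22 had a correlation above 0.6 with the sum of the other single-exon genes, the highest being his-62 and his-63 at 0.987. The exception was his-68 at 0.512, which had a correlation of 0.919 with the sum of the genes with an intron and UTRs. The 11 genes under 1 CPM made 55 pairs with a median of 0.142. Near-identical copies may share reads, and all genes of a library share its preparation.

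The genes with an intron and UTRs held 2 patterns. The H1 gene his-24, the H2A gene his-35 and the H3 variants his-71, his-72 and his-74 made 10 pairs with correlations between 0.68 and 0.926, median 0.871. The H4 gene his-37 and the H2B gene his-41 had correlations between -0.252 and 0.267 with those 5 genes and of 0.435 with each other. The sum of all 8 followed that of the cuticle collagen genes within groups (Pearson 0.905) and that of the histone variants and linkers with other symbols, such as htz-1 and hil-1 to hil-8 (0.919). The single-exon sum had correlations of 0.384 and 0.263 with the same lists. These are among 20 such correlations computed, with no test.

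In F0, the generation that was irradiated first, 0 of 42 histone genes were called between exposed and control animals. A gene was called at an adjusted p under 0.05 in edgeR's quasi-likelihood test over all 17627 genes, which called 1.36% of all genes here. Of the 42 tested histone genes, 5 had an unadjusted p under 0.05, all lower, where 16.2% of all genes did. DESeq2 called 1, his-68, and 4.16% of the 12159 genes to which it gave an adjusted p. It gives none to genes that its own filter leaves out. Here and below, DESeq2 shares of all genes are over the genes with such a p in that comparison. Histone genes without one count as not called by DESeq2. The H2A gene his-68 stood at 12.4, 18.6 and 17.9 CPM in exposed animals and 24.3, 28.4 and 25.7 CPM in controls. All exposed libraries were below all controls, and the log2 fold change was -0.68 ± 0.21 (SE), with an adjusted p of 0.1 in edgeR. With the ribosomal RNA share its Pearson correlation was -0.202.

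The H3.3 genes gave values on the same side in F0. For his-72 the level was 58.9, 123 and 97.3 CPM in exposed animals and 145, 144 and 139 CPM in controls. For his-71 it was 7.3, 14.9 and 11.7 CPM in exposed animals and 15.5, 16.5 and 15.1 CPM in controls. Neither gene overlapped between groups, and edgeR gave adjusted p of 0.26 for his-72 and 0.3 for his-71, so neither was called. F0 exposed 1 was the lowest of the 3 exposed libraries for both, as it was for his-24 and his-74. Of the 42 genes, 10 were lower in exposed animals without overlap, against 10.7% of all genes tested. The median log2 fold change was -0.32 over the 42 genes and 0.01 over all genes. Over the single-exon genes it was -0.3, and -0.54 with the ribosomal RNA share as a covariate, whose slope comes from all 33 libraries.

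In F1, 0 of 42 histone genes were called between exposed and control animals, where edgeR called 1.47% of all genes. Of the 42, 8 had an unadjusted p under 0.05, 7 of them lower, where 12.3% of all genes had one. DESeq2 called 0 of the 42 and 2.56% of all genes. The median log2 fold change was -0.38 over single-exon genes and 0.11 over the genes with an intron and UTRs. The H4 gene his-64 shows the spread: 10.9, 10.4 and 11.4 CPM in exposed animals and 18.6, 48.2 and 14.3 CPM in controls. F1 control 2, with 12.7% ribosomal RNA, was far above the other controls, and with the share as a covariate the single-exon median changed sign, to 0.18. Of the 42 genes, 14 were lower in exposed animals without overlap, against 12.3% of all genes.

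In F2, his-70 and his-32 fell in exposed animals, 2 of 42 histone genes where edgeR called 9.0% of all genes. DESeq2 called the same 2 genes and 15% of all genes. The H3.3-type gene his-70 (WBGene00001944, III:4059715-4060119) stood at 2.76, 2.95 and 2.63 CPM in exposed animals and 5.84, 6.15 and 3.84 CPM in controls. All exposed libraries were below all controls, and the exposed ones lay close together. The log2 fold change was -0.91 ± 0.22 (SE, 95% interval -1.36 to -0.46), with an adjusted p of 0.01 in edgeR. With the ribosomal RNA share as a covariate it was -0.76 with an adjusted p of 0.031, and without F2 control 2, the highest control, it was -0.78 with an adjusted p of 0.087.

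The H3 gene his-32 (WBGene00001906, IV:8334305-8334715) stood at 0.954, 1.87 and 1.35 CPM in F2 exposed and 5.38, 2.74 and 1.57 CPM in F2 control animals. The groups overlapped, and F2 control 1 alone was above 5 CPM. The log2 fold change was -1.16 ± 0.37 (SE), with an adjusted p of 0.047 in edgeR. It was -0.85 with an adjusted p of 0.15 with the ribosomal RNA share as a covariate, and -0.6 with an adjusted p of 0.37 without F2 control 1. The call was also lost without F2 exposed 1, F2 exposed 3 or F2 control 2, with adjusted p of 0.21, 0.12 and 0.11 in edgeR, with no filter on low counts (0.11) and with the F2 libraries fitted alone (0.14).

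Most other F2 values were on the same side without passing the test. Of the 42 genes, 39 had a log2 fold change below 0 and 13 an unadjusted p under 0.05, all lower, where 24.4% of all genes had one. The median was -0.81 over single-exon genes and -0.34 over the genes with an intron and UTRs, against values between -0.03 and 0.04 over all genes in all comparisons. With the ribosomal RNA share as a covariate the single-exon median was -0.34. Only 1 of the 42, his-70, was lower without overlap, against 16.9% of all genes. The H3.3 gene his-72 was at 73.2, 89.8 and 76.0 CPM in exposed animals and 149, 129 and 59.9 CPM in controls, so that F2 control 3 lay below every exposed library. Without F2 control 3 edgeR called 13 of the 42 genes, without F2 control 2 it called 0, and without F2 exposed 1, F2 exposed 3 or F2 control 1 it called 1.

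Markers of other tissues also differed in F2. Of 31 tested major sperm protein genes, 29 fell in exposed animals, and their sums were 2569, 2482 and 2524 CPM in exposed animals and 3827, 4454 and 2877 CPM in controls. Of 135 tested cuticle collagen genes 39 fell, where edgeR called 9.0% of all genes in either direction. F2 control 3, which was lowest in his-70 among the controls, was also lowest in both sums, with a collagen sum of 15510 CPM against 24710 and 24770 CPM in the other F2 controls. Of 14 germline markers 3 rose, including glh-1, and of 6 yolk genes 2 rose. Among 20 oocyte markers edgeR called 0, with 2 at an unadjusted p under 0.05 and 2 by DESeq2. Among 13 embryo markers all 3 counts were 0. The part of these tissues in the histone results was not tested.

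In F3, the H2B gene his-39 (WBGene00001913, V:8536513-8536716) rose in exposed animals, 1 of 42 histone genes where edgeR called 5.24% of all genes. DESeq2 called 2, his-39 as higher and his-25 as lower, and 7.13% of all genes. The gene is annotated with a coding length of 204 bases, against 369 or 372 in the other H2B genes, and it had few counts: 10, 7 and 7 in exposed and 0, 4 and 0 in control libraries. The log2 fold change was 2.77 ± 0.81 (SE, 95% interval 1.1 to 4.45), with an adjusted p of 0.041 in edgeR, and the groups did not overlap. The call was lost without any one of these libraries other than F3 control 2. In those fits the log2 fold change was between 2.16 and 2.91. Without F3 control 2, which leaves 2 controls at 0 counts, the fitted value was 6.46 and depends on the prior count. The call was also lost with no filter on low counts (adjusted p 0.068) and with the F3 libraries fitted alone (adjusted p 0.38). Its highest count of all, 24, was in F0 exposed 1, and the F0 controls had 8, 10 and 6.

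Over the 42 histone genes the median log2 fold change in F3 was -0.13, and over the single-exon genes it was -0.15, or -0.1 with the ribosomal RNA share as a covariate. Of the 42 genes, 3 had an unadjusted p under 0.05, where 20.9% of all genes had one, and 1 was lower without overlap, against 7.06% of all genes. F3 exposed 1 was high in single-exon genes, as were F3 control 1 and F3 control 3. The H4 gene his-60 stood at 68.4, 32.7 and 25.4 CPM in exposed animals and 54.2, 27.8 and 65.2 CPM in controls. Groups overlapped widely for this gene.

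Whether the effect of exposure differed between generations was tested directly against F0. For F1, F2 and F3 edgeR called 0 of the 42 genes, where it called 0.0567%, 3.04% and 0.221% of all genes. Unadjusted p under 0.05 were found for 5, 3 and 4 of the 42, where 14.2%, 19.7% and 14.9% of all genes had one. DESeq2 called 0 of the 42 in each, and 0.449%, 7.37% and 1.26% of all genes. For his-70 the effect in F2 was lower than in F0 by a log2 difference of -0.69 (95% interval -1.33 to -0.06), with an adjusted p of 0.2 in edgeR. The fall of his-70 in F2 was therefore not shown to be particular to that generation.

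**Figure D4:**
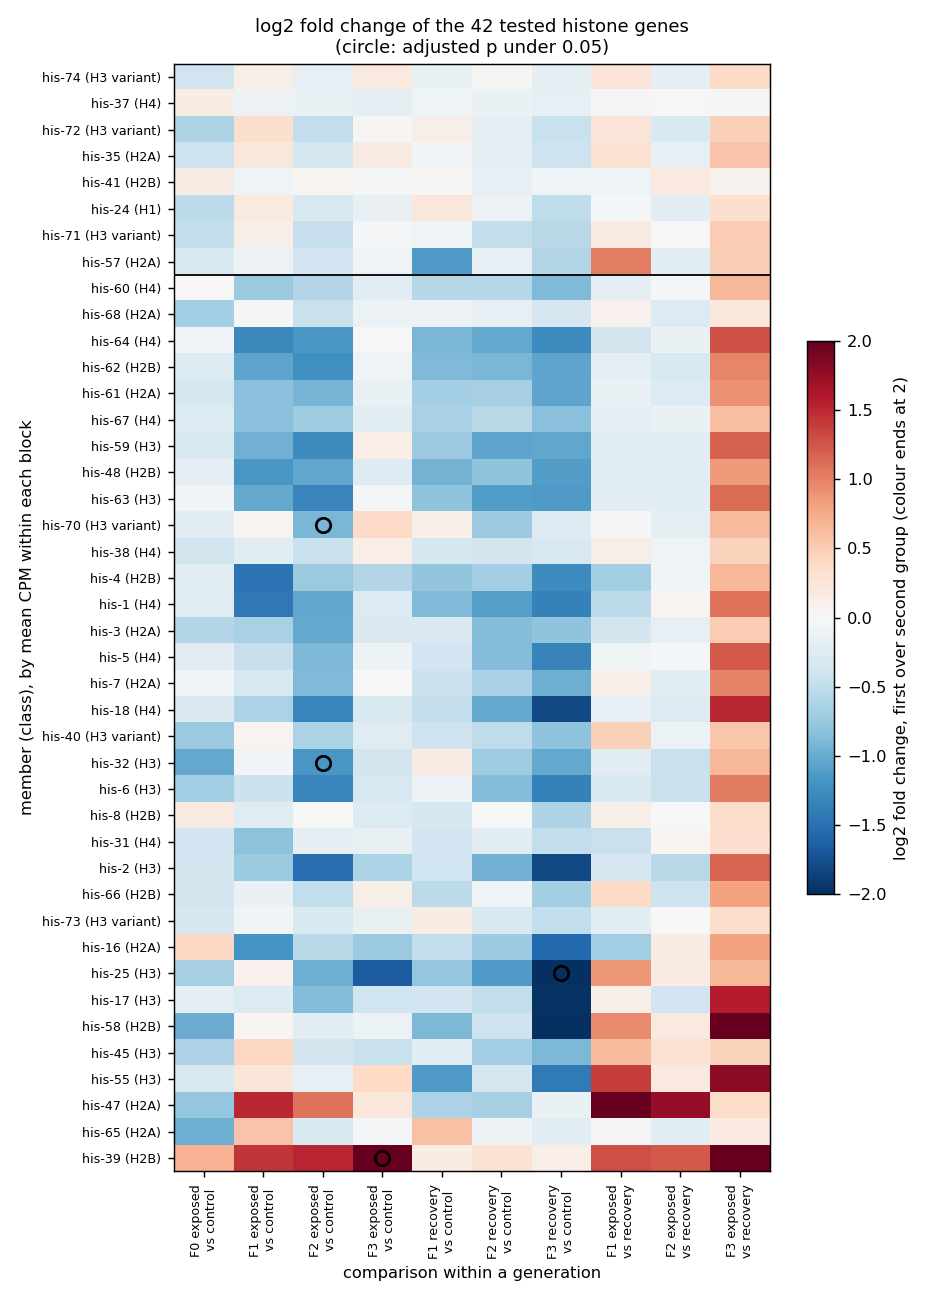
The log2 fold change of each of the 42 tested histone genes (down the page; genes with an intron and UTRs above the line, each block in order of mean CPM) in the 10 comparisons within a generation (across), from blue (lower in the group named first) to red (higher). Circles mark an adjusted p under 0.05. Most single-exon genes are blue in recovery against control and red in F3 exposed against recovery, while only 4 cells carry a circle.

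In unirradiated F1 descendants of irradiated animals, edgeR called 0 of the 42 histone genes against controls, where it called 2.81% of all genes. Of the 42, 3 had an unadjusted p under 0.05, all lower, where 14.3% of all genes had one. DESeq2 called 1, his-57, and 4.71% of all genes. The H2A gene his-57 stood at 0.447, 0.294 and 0.407 CPM in recovery animals and 0.719, 1.39 and 0.531 CPM in controls. The groups did not overlap, with a log2 fold change of -1.13 and an adjusted p of 0.072 in edgeR. This gene overlaps klp-12 on the other strand, and the strand setting of the counting is not given. Of the 42 genes, 4 were lower in recovery animals without overlap, against 12.2% of all genes. The median over single-exon genes was -0.45, and -0.13 with the ribosomal RNA share as a covariate. Without F1 control 3 edgeR called his-57.

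In F2 recovery animals edgeR also called 0 of the 42 genes, where it called 3.05% of all genes. DESeq2 called 1, his-70, and 7.37% of all genes. There were 6 histone genes with an unadjusted p under 0.05, all lower, where 20.2% of all genes had one. The level of his-70 was 2.98, 3.09 and 3.41 CPM in recovery animals and 5.84, 6.15 and 3.84 CPM in controls, with no overlap. Its log2 fold change of -0.73 ± 0.21 (SE) had an adjusted p of 0.056 in edgeR. Exposed and recovery animals of F2 were set against the same controls, and his-70 averaged 2.78 ± 0.158 CPM in exposed and 3.16 ± 0.224 CPM in recovery animals (SD, n = 3 each). Here 35 cuticle collagen genes fell in recovery animals. Of the 42 histone genes, 3 were lower without overlap, against 15.4% of all genes. The median over single-exon genes was -0.67, and -0.09 with the ribosomal RNA share as a covariate. Without F2 control 3 edgeR called 2 genes, his-70 and his-71.

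In F3 recovery animals the H3 gene his-25 (WBGene00001899, II:13824849-13825259) fell, 1 of 42 histone genes where edgeR called 1.58% of all genes. Its counts were 13, 7 and 1 in recovery and 17, 14 and 48 in control libraries, or 0.222, 0.182 and 0.0219 CPM in recovery against 0.638, 0.363 and 1.24 CPM in controls. The groups did not overlap, and the lowest recovery library and the highest control library, F3 recovery 3 and F3 control 3, are the ones with the fewest genes detected, whose part in the result was not tested. The log2 fold change was -2.35 ± 0.55 (SE, 95% interval -3.48 to -1.21), with an adjusted p of 0.026 in edgeR. It was -1.87 with an adjusted p of 0.17 without F3 recovery 3, -1.72 with 0.16 without F3 control 3, -2.44 with 0.057 without F3 control 1, and -1.89 with 0.16 with the ribosomal RNA share as a covariate. With the F3 libraries fitted alone the adjusted p was 0.54. DESeq2 called 3 histone genes lower, his-6, his-25 and his-58, and 3.19% of all genes in either direction.

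The lower values reached most histone genes in F3 recovery animals. Of the 42, 41 had a log2 fold change below 0, 24 had an unadjusted p under 0.05, all lower, where 15.8% of all genes had one, and 11 were lower without overlap, against 4.21% of all genes. The median was -1.04 over single-exon genes and -0.43 over the genes with an intron and UTRs. The H2B gene his-48 stood at 7.16, 12.7 and 6.51 CPM in recovery animals and 22.3, 12.4 and 22 CPM in controls. F3 recovery 2 overlapped with F3 control 2, as it did for many single-exon genes. The ribosomal RNA share was 5.88%, 10.2% and 4.09% in the recovery libraries and 15.7%, 6.78% and 14% in the controls, so that F3 recovery 2 was the highest recovery and F3 control 2 the lowest control library in this share as in the single-exon sum. With the share as a covariate the single-exon median was -0.39. Without F3 recovery 2 or without F3 control 2 edgeR called 4 of the 42 genes, and it called 0 without F3 recovery 3, F3 control 1 or F3 control 3.

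Exposed and recovery animals of the same generation were compared with each other. In F1 edgeR called 0 of 42 (1.45% of all genes), with 3 at an unadjusted p under 0.05 (13.9% of all genes) and 0 by DESeq2 (3.5%). In F2 it called 0 of 42 (0.00567% of all genes), with 2 at an unadjusted p under 0.05 (6.52% of all genes) and 0 by DESeq2 (0.017%). The median over single-exon genes was -0.16 in F1, where it changed sign to 0.29 with the ribosomal RNA share as a covariate, and -0.14 in F2, where it was -0.19 with the covariate.

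In F3 edgeR again called 0 of 42, where it called 1.68% of all genes, but 15 had an unadjusted p under 0.05, all higher in exposed animals, where 21.6% of all genes had one in either direction. DESeq2 called 3 higher, his-39, his-55 and his-58, and 4.66% of all genes. Of the 42, 41 had a log2 fold change above 0 and 12 were higher without overlap, against 10.3% of all genes. The H2A gene his-35 stood at 45.5, 43.1 and 49.3 CPM in exposed animals and 28.6, 35.9 and 28.7 CPM in recovery animals, without overlap. The H2B gene his-62 stood at 42.8, 18.1 and 13.6 CPM in exposed animals and 8.58, 19.6 and 9.67 CPM in recovery animals, where F3 recovery 2 lay above F3 exposed 2 and 3. The single-exon median was 0.8, and 0.38 with the ribosomal RNA share as a covariate. Without F3 exposed 2 edgeR called 3 of the 42, and without F3 recovery 2 it called 2.

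Averaged over the 4 generations, 4 of 42 histone genes changed between exposed and control animals, where edgeR called 8.29% of all genes. DESeq2 called 9 of the 42 and 10.2% of all genes, and 19 of the 42 had an unadjusted p under 0.05, against 21.2% of all genes. The H3 genes his-6 (WBGene00001880, V:8534567-8534977), his-25 and his-32 fell, with log2 fold changes of -0.69 ± 0.21, -0.81 ± 0.25 and -0.65 ± 0.18 (SE) and adjusted p of 0.037, 0.043 and 0.021 in edgeR. The H2B gene his-39 rose by 1.6 ± 0.43 (SE) on the log2 scale, with an adjusted p of 0.018. For his-6 the levels were 0.769, 1.74 and 1.45 CPM in F0 exposed against 2.34, 1.77 and 2.26 CPM in F0 control animals. In F2 they were 0.848, 1.43 and 1.01 CPM in exposed against 4.96, 2.28 and 1.34 CPM in controls. F2 control 1 was again the highest, and with the ribosomal RNA share as a covariate the average for his-6 was -0.37 with an adjusted p of 0.18, that for his-25 was -0.6 with 0.18 and that for his-32 was -0.47 with 0.096. With no filter on low counts the adjusted p was 0.092 for his-6 and 0.055 for his-32. Of 24 fits that left out 1 library, 12 lost the call of his-6, 13 that of his-25, 1 that of his-32 (without F1 control 2) and 1 that of his-39 (without F2 exposed 1). Without F3 control 2 the average for his-39 was 2.53. The median over single-exon genes was -0.43, and -0.18 with the covariate.

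Averaged over F1 to F3, his-25 and his-48 fell in recovery against control animals, 2 of 42 where edgeR called 2.89% of all genes. The H3 gene his-25 had a log2 fold change of -1.42 ± 0.3 (SE, adjusted p 0.011 in edgeR). The H2B gene his-48 (WBGene00001922, IV:11324745-11325116) had -0.95 ± 0.25 (SE, adjusted p 0.043). With the ribosomal RNA share as a covariate they were -1.06 (adjusted p 0.22) and -0.28 (adjusted p 0.58). With no filter on low counts the adjusted p of his-48 was 0.078. DESeq2 called 13 of the 42 and 7.58% of the 15234 genes to which it gave an adjusted p, and his-25 was not among these. An unadjusted p under 0.05 was found for 30 of the 42, all lower, and for 21.3% of all genes. Of 18 fits that left out 1 library, 13 lost the call of his-48 and 0 that of his-25. The median over single-exon genes was -0.74, and -0.15 with the covariate. These averages share the controls of F1 to F3 with those for exposed animals.

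Between exposed and recovery animals over F1 to F3, the H2A gene his-47 (WBGene00001921, IV:11324056-11324439) rose, 1 of 42 where edgeR called 1.4% of all genes. DESeq2 called 0 of the 42 and 3.86% of the 15918 genes to which it gave an adjusted p, and his-47 was not among these. Of the 42, 6 had an unadjusted p under 0.05 in edgeR, against 17.4% of all genes. The counts of his-47 were 13, 11 and 16 in F1 exposed against 4, 5 and 2 in F1 recovery, and 7, 8 and 13 in F2 exposed against 6, 2 and 1 in F2 recovery animals. Neither pair overlapped. In F3 they were 8, 6 and 8 in exposed against 9, 8 and 11 in recovery animals, which overlapped. These counts are not scaled for library size. The F3 exposed libraries held 31365498, 31249828 and 27698760 counts in all, and the F3 recovery libraries 54395183, 38149908 and 42826870. After scaling, all 34 tested single-exon genes, his-47 among them, were higher in F3 exposed animals, by a log2 fold change of at least 0.2. The log2 fold change of his-47 over the 3 generations was 1.41 ± 0.35 (SE), with an adjusted p of 0.037 in edgeR. Its call was lost in 11 of the 18 fits that left out 1 library. The gene adjoins his-48 in the same cluster. The median over single-exon genes was 0.17, and 0.12 with the covariate.

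**Figure D5:**
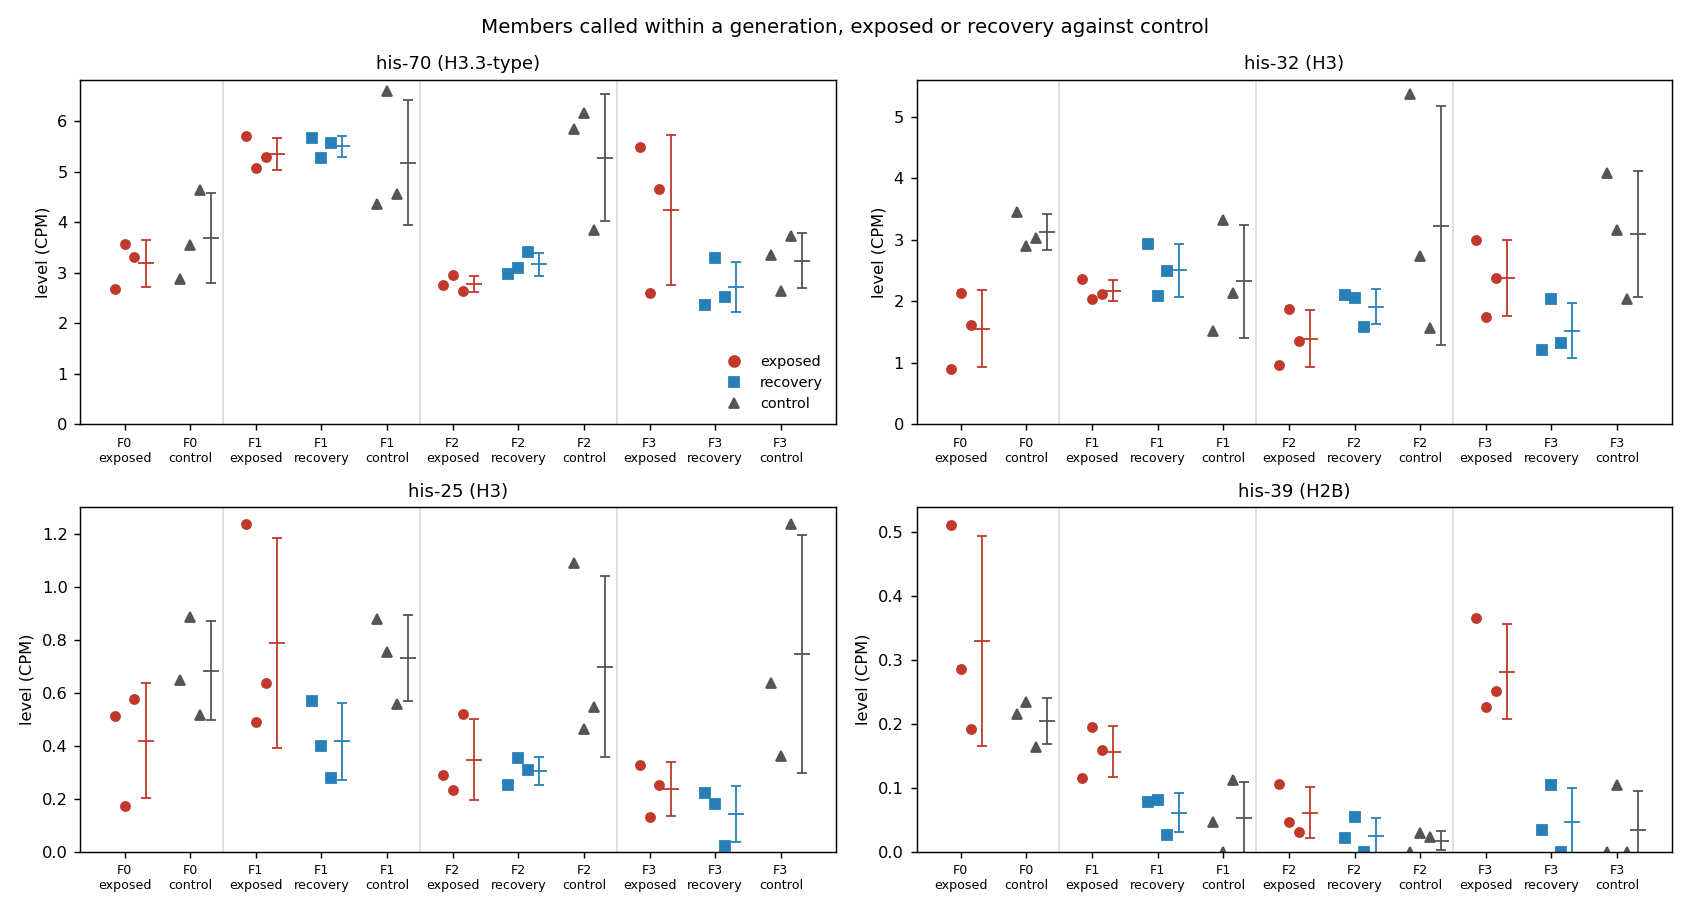
Level in CPM of his-70, his-32, his-25 and his-39, the 4 histone genes called against control within a generation, in each of the 33 libraries by group, with the mean and SD of 3 libraries. The F2 exposed libraries of his-70 lie between 2.63 and 2.95 CPM, all below the F2 controls, while his-25 and his-39 rest on levels near or under 1 CPM.

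The H1 gene and the tested H3.3-type or other H3 variant genes except his-70 were called in none of the 19 comparisons by edgeR. The H1 gene his-24 had group means between 20.8 ± 6.01 CPM in F0 exposed and 39.6 ± 6.68 CPM in F3 control animals (SD, n = 3 each). Its level in F3 was 34.3, 25 and 46.7 CPM in exposed, 21.8, 29.6 and 32.1 CPM in recovery animals and 38.7, 46.7 and 33.4 CPM in controls, where recovery lay below all controls. For his-74 group means ran from 111 ± 6.34 CPM in F2 exposed to 166 ± 7.57 CPM in F0 control animals. The H3 variant gene his-73 stayed between 0.336 and 1.1 CPM in the 33 libraries, and it overlaps W09H1.4 on the same strand. It is annotated with a coding length of 141 bases, against at least 384 in the others of its class. A p that missed the threshold does not show that the levels of these genes were the same.

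Controls of successive generations showed how far these genes move without radiation, although generation cannot be told apart from culture or library batch. From F1 to F2 controls 2 of 42 histone genes changed, where edgeR called 23.5% of all genes. DESeq2 called 2 as well (24.4% of all genes), and 2 had an unadjusted p under 0.05 (34.4% of all genes). The H4 gene his-37 stood at 106, 94.8 and 97.1 CPM in F2 and 128, 129 and 141 CPM in F1 controls. Its log2 fold change was -0.41 ± 0.09 (SE, adjusted p 0.00058 in edgeR). The H2B gene his-41 stood at 38.5, 35.1 and 35.4 CPM in F2 and 44.1, 45.5 and 41.4 CPM in F1 controls, a log2 fold change of -0.27 ± 0.09 (SE, adjusted p 0.027 in edgeR). These 2 genes had the smallest ratios between the highest and the lowest library of the 42, they are neighbours in 1 locus, and neither overlapped between the generations. The call of his-37 held without any one library, and that of his-41 was lost in 4 of 6 such fits, those without F2 control 2, F2 control 3, F1 control 1 or F1 control 2.

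The shift of his-37 was seen in treated animals as well: its mean was 90.5 ± 7.08 CPM in F2 exposed and 90 ± 7.62 CPM in F2 recovery, against 123 ± 6.6 CPM in F1 exposed and 126 ± 3.71 CPM in F1 recovery animals (SD, n = 3 each). In F3 it was 97.4 ± 5.87 CPM in exposed, 99.6 ± 5.41 CPM in recovery animals and 112 ± 17.7 CPM in controls. The gene overlaps nstp-10 on the other strand. From F2 to F3 controls his-70 fell, 1 of 42 where edgeR called 29.2% of all genes. DESeq2 called 1 as well (32.3% of all genes), and 1 had an unadjusted p under 0.05 (40.6% of all genes). The gene stood at 3.34, 2.64 and 3.73 CPM in F3 and 5.84, 6.15 and 3.84 CPM in F2 controls, a log2 fold change of -0.7 ± 0.22 (SE, adjusted p 0.017). The call was lost without F3 control 2, F2 control 1 or F2 control 2. The F3 control mean of his-70 was 3.24 ± 0.549 CPM, against 2.78 ± 0.158 CPM in F2 exposed animals (SD, n = 3 each). From F0 to F1 controls edgeR called 0 of 42, where it called 19.8% of all genes. There were 9 at an unadjusted p under 0.05, where 34.6% of all genes had one. DESeq2 called 1, his-4, as higher in F1, and 20.8% of all genes. The single-exon median was 0.48 for F1 against F0 controls, 0.32 for F2 against F1 and 0.03 for F3 against F2. With the ribosomal RNA share as a covariate the first changed sign to -0.35 and the next to -0.29, and the last was 0.32.

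Genes that serve histone production were followed beside the members. In F2, where edgeR called 9.0% of all genes in either direction, 3 of 5 tested genes for histone mRNA 3′ ends and supply rose in exposed animals, among them ekl-1, at 76.7 ± 2.56 CPM in exposed animals and 65.3 ± 1.55 CPM in controls (SD, n = 3 each). The others were ego-1 and drh-3, which with ekl-1 belong to the small RNA machinery around csr-1, a pathway known in worms to take part in histone mRNA maturation. Of 13 histone chaperone genes 4 rose and none fell, including hira-1, which places H3.3, at 84.7 ± 5.26 CPM in exposed animals and 72.1 ± 6.47 CPM in controls. Of 36 DNA replication genes 3 rose, including the helicase loader cdc-6, at 102 ± 4.94 CPM in exposed animals and 83.2 ± 7.02 CPM in controls. The medians of these lists were 0.23, 0.14 and 0.11 on the log2 scale. Members of the same 3 lists also rose in F3 against F2 controls, where edgeR called 29.2% of all genes: 3 of 5 genes for 3′ ends and supply (again ekl-1, drh-3 and ego-1), 8 of 13 chaperones and 14 of 36 replication genes. For ekl-1 the level was 79.4 ± 4.67 CPM in F3 controls, against 65.3 ± 1.55 CPM in F2 controls and 75.7 ± 2.57 CPM in F1 controls (SD, n = 3 each). The F2 controls were the lowest of these for this gene, but not for every list. From F1 to F2 controls, where edgeR called 23.5% of all genes, 7 of 36 replication genes rose and 0 fell. Of the 13 chaperones 1 rose and 2 fell, and of the 5 genes for 3′ ends and supply only ekl-1 was called. Of 11 histone variants and linkers with other symbols edgeR called 0 in F2, with 0 at an unadjusted p under 0.05 and 0 by DESeq2, and their median was -0.24.

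In F3 exposed animals csr-1 rose, 1 of 5 genes of its list, at 520 ± 10.9 CPM against 402 ± 10.6 CPM in controls. It also rose in the average over 4 generations, by 0.25 ± 0.04 (SE) on the log2 scale (adjusted p 0.00013 in edgeR). From F0 to F1 controls csr-1 fell, by -0.27 ± 0.08 (SE, adjusted p 0.018 in edgeR). In F3 exposed animals the primase gene pri-1 fell, 1 of 36, at 70 ± 4.88 CPM against 90.9 ± 9.65 CPM in controls, where edgeR called 5.24% of all genes. In F3 recovery animals, where most histone values were lower, edgeR and DESeq2 called 0 of these genes against controls. An unadjusted p under 0.05 was found for 2 of 5 genes for 3′ ends and supply, 0 of 13 chaperones, 3 of 36 replication genes and 2 of 11 variants and linkers, where 15.8% of all genes had one. In F0 exposed animals the primase gene pri-2 fell, 1 of 36 replication genes where 1.36% of all genes were called, at 52.4 ± 8.67 CPM against 69.3 ± 4.23 CPM in controls. There 13 of 36 replication genes had an unadjusted p under 0.05 in edgeR, where 16.2% of all genes did. So did 1 of 5 genes for 3′ ends and supply, 3 of 13 chaperones, 5 of 11 variants and linkers and 9 of 20 oocyte markers. The log2 medians were -0.08, 0.01, -0.04, -0.43 and -0.21, in that order.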

How the data were processed

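RNA-seq libraries of whole animals were strand-specific and paired-end, per the labels' protocols. The count files as deposited by the authors hold whole-number read counts per gene, not normalised. The submitters' processing notes name STAR and DESeq2 (1.22.2) without saying what each was used for. Not given in the sources used here are the genome build, the counting program, its strand setting and how it treated reads that fit several genes.

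Of 46778 IDs, 46603 were in the WBcel235 annotation, which gave positions and gene models. The gene name table and the annotation gave only 50 distinct symbols for the 72 members, so the 22 that differed were named from the RefSeq gene table. Counts were fitted in edgeR 4.0.16 (R 4.3.3) with TMM scaling and a filter on low counts (minimum count 10), 17627 genes, 11 groups and 22 residual degrees of freedom, with a robust quasi-likelihood F-test and Benjamini-Hochberg adjustment over all genes tested. CPM use the same scaling. Pearson correlations of single genes used log2 values of CPM plus 0.05. Summed levels and the ribosomal RNA share were put on the log2 scale with nothing added. Alternatives were DESeq2 1.42.0, DESeq2 size factors as scaling, no filter, ribosomal RNA genes left out, a replicate block, each generation alone, each library left out and, chosen after seeing the data, the ribosomal RNA share as a covariate.

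Named members were those called in any of the 19 comparisons, the gene of highest mean CPM in each core class, and the H3.3-type and H1 genes that passed the filter; others named, such as his-60, his-62, his-64 and his-68, were chosen after their values were seen. The members and the gene lists were chosen with earlier results of these data known, so no p over the members alone is given. Replicates are biological per the labels, which do not name separate irradiations, so p-values measure the spread between libraries, which may be partly technical. The scripts were tested on simulated data. Sequences are not used here.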

Additional observations from a re-analysis of the deposited data

How the results depend on the processing

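Some ratios of summed levels changed sign when 1 library was left out of the sums given above. The single-exon log2 ratio of F2 recovery to control was -0.53, with a spread of 0.99. Without F2 control 1, recovery stood at 175, 183 and 195 CPM against 197 and 163 CPM in controls. The ratio of F3 exposed to control for genes with an intron and UTRs, 0.03, changed sign without F3 control 3. No called gene reversed its direction under an alternative. The single-exon median did with the ribosomal RNA share as a covariate, to 0.18 in F1 exposed against control and 0.29 in F1 exposed against recovery. It also did in F1 against F0 controls (-0.35) and F2 against F1 controls (-0.29), and in the change of exposed against control from F0 to F1 (0.62, against -0.16) and from F0 to F2 (0.25, against -0.49). The summed levels of both kinds of histone gene moved by less than the spread between libraries in all 160 recomputed ratios. The main counts of called genes are those of the report. By DESeq2 the counts were 1 in F0 exposed, 2 in F3 exposed, 1 in F1 recovery, 1 in F2 recovery and 3 in F3 recovery against control. They were 3 in F3 exposed against recovery, 9, 13 and 0 in the averages of exposed against control, recovery against control and exposed against recovery, and 1 in F1 against F0 controls. With no filter on low counts they were 1 in F2 and 0 in F3 exposed against control, and 2 and 1 in the averages of exposed and recovery against control. With each generation alone they were 1 in F2 exposed, 0 in F3 exposed, 1 in F2 recovery and 0 in F3 recovery against control, and 1 in F1 exposed against recovery. With the ribosomal RNA share as a covariate they were 1 in F2 exposed and 0 in F3 recovery against control, 1 and 0 in the averages of exposed and recovery against control, 4 in F2 against F1 controls and 3 in F3 against F2 controls. Other scalings, and leaving out the ribosomal RNA genes, left each count within 1.5 times its main value.

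Libraries that share a number in a generation showed no clear sign of being paired by it. Deviations from group means had correlations between -0.222 and 0.333 in 30 such pairs (median -0.0046). In 60 others they were between -0.433 and 0.288 (median 0.00855). With 3 libraries per group these values cannot exclude a pairing. With the number as a replicate block, the counts were 1 in F2 exposed, 0 in F3 exposed and 0 in F3 recovery against control. They were 2, 1 and 0 in the averages of exposed against control, recovery against control and exposed against recovery.

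With 1 library left out at a time, the counts ran from 0 to 13 in F2 exposed, 0 to 3 in F3 exposed, 0 to 1 in F1 recovery, 0 to 2 in F2 recovery and 0 to 4 in F3 recovery against control, and from 0 to 3 in F3 exposed against recovery. They ran from 0 to 1 in the change from F0 to F3, without F3 control 2. The averages ran from 1 (without F1 control 2 or F2 exposed 1) to 13 (without F3 exposed 1) in exposed against control. In recovery against control they ran from 1 to 22, with 22 without F2 control 3, 18 without F3 control 2, 15 without F3 recovery 2 and 6 without F1 control 3. In exposed against recovery they ran from 0 to 2. Among controls the counts ran from 0 to 1 in F1 against F0, 1 to 3 in F2 against F1 and 1 to 2 in F3 against F2. Beyond what the construction of an alternative shows, such as fewer libraries, the cause was not tested. Depth limits the tested genes under 1 CPM most, among them his-25 and his-39, and the 30 genes that were not tested.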
